A study of Mus musculus with 10 samples.

Results

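DNA damage repair was examined through 39 genes of homologous recombination, the Fanconi anaemia pathway, checkpoint signalling, end joining, mismatch repair and base and nucleotide excision repair. The members were chosen by name, from textbook roles, with earlier results of these data known. All 39 are present among the 49568 genes of the table. Messenger RNA had been sequenced, with 1 library per line, in 10 lines grown from mouse pancreatic cancer, cultured in DMEM with 10% serum and harvested with no treatment named. The KPC lines are A1081, A1620, A1625, A2031 and A2032 (n = 5), and the KPCAf/f lines are A1693, A1809, A1925, A2441 and A3992 (n = 5). KPC commonly denotes mice that develop pancreatic cancer because a Cre recombinase of the pancreas acts on engineered alleles, mutant Trp53 among them. The labels spell out neither the alleles nor the A of KPCAf/f, read here as floxed Arid1a after the series title. They do not say whether each line came from its own animal, so the p-values below measure the spread between these lines.

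Cells mend broken and damaged DNA by several routes. Homologous recombination copies the sister chromatid and depends on BRCA1 and BRCA2, end joining ligates broken ends directly, mismatch repair corrects replication errors, and the excision pathways remove damaged bases or longer adducts. The kinases ATM and ATR sense damage and halt the cell cycle, and inherited defects in BRCA1, BRCA2, PALB2 and ATM predispose to pancreatic cancer in people. ARID1A, which belongs to the SWI/SNF machinery that moves nucleosomes, has itself been linked to the response to double-strand breaks.

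A few facts of the whole series touch every value below. Reads assigned to genes ranged from 15124888 to 20419830 per line. Arid1a itself lay between 820 and 3109 normalized counts (gene counts divided by the size factor of the line) in KPC lines, and in KPCAf/f lines between 1253 and 1785, which limma did not call (adjusted p = 0.563). The 820 was that of A1620, and the other 4 KPC lines, at 1915 to 3109, lay above every KPCAf/f line. Without A1620 the log2 fold change of Arid1a was -0.72 (interval -1.11 to -0.34, limma adjusted p = 0.0857). A count over the whole gene cannot show whether the floxed exons were lost, so the genotype was not checked by it. KPC line A1620 stood apart in its dependence on transcript length, with a shift of -0.65 on the log2 scale per doubling of length over all tested genes. In the other 4 KPC lines that shift lay between -0.02 and 0.04, and in the KPCAf/f lines between 0.10 and 0.15. Genotype and this smaller difference in length dependence cannot be told apart. The pancreatic factor Pdx1 was at 2.70 and E-cadherin (Cdh1) at 10.8 normalized counts in A1693, a KPCAf/f line. In the same line Krt8 was at 2466, Krt18 at 2808 and Sox9 at 945, for Sox9 the highest of all lines. The 10 pancreatic epithelial markers summed to 6886 to 135406 in KPCAf/f and 182341 to 374518 in KPC. The 10 fibroblast markers summed to 14717 to 88400 in KPCAf/f and 62.9 to 173 in KPC. Of the epithelial markers, Epcam averaged higher in KPCAf/f (1421 against 300), with A1809 at 6720, as did Sox9 (445 against 390). The 8 leukocyte markers summed to at most 293 and the 5 endothelial markers to at most 668 in any line. In each KPC line 4 Y-linked genes had 1148 to 3415 reads together, against 0 to 3 in the KPCAf/f lines, so genotype and Y-linked expression cannot be told apart. Fewer cells of a kind and less RNA per cell cannot be told apart either. The part of these differences in the repair values was not tested, except where values without A1620 or A1693 or corrected for transcript length are given.

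None of the 39 members passed the threshold between the genotypes by limma, edgeR, DESeq2 or limma-voom. Of the 39 members 38 passed the filter on low values, and limma called 0 of them in either direction at a Benjamini-Hochberg adjusted p under 0.05, where 1.75% of the 13089 genes tested were called. The smallest adjusted p among the members was 0.386, for the mismatch recognition gene Msh6. At an unadjusted p under 0.05 the count was also 0, against 14.6% of all genes tested. The values of the genotypes overlapped for each of the 39 members, whereas they did not overlap for 4.53% of genes tested. edgeR, DESeq2 and limma-voom on the recovered reads also called 0 members, where they called 1.34%, 6.83% and 0.85% of their genes, and 0 members had an unadjusted p under 0.05 by any of these 3 tools. Fold changes here are KPCAf/f relative to KPC, as differences in log2(normalized count + 1). Their median was 0.07 over the 38 members and -0.01 over all genes tested, with 23 members above 0 and 15 below. Without A1620 the median of the members was -0.02, with 18 above 0 and 20 below. Leaving out KPCAf/f line A1693 instead also gave a median of -0.02, so a median above 0 depended on each of these lines.

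**Figure D1:**
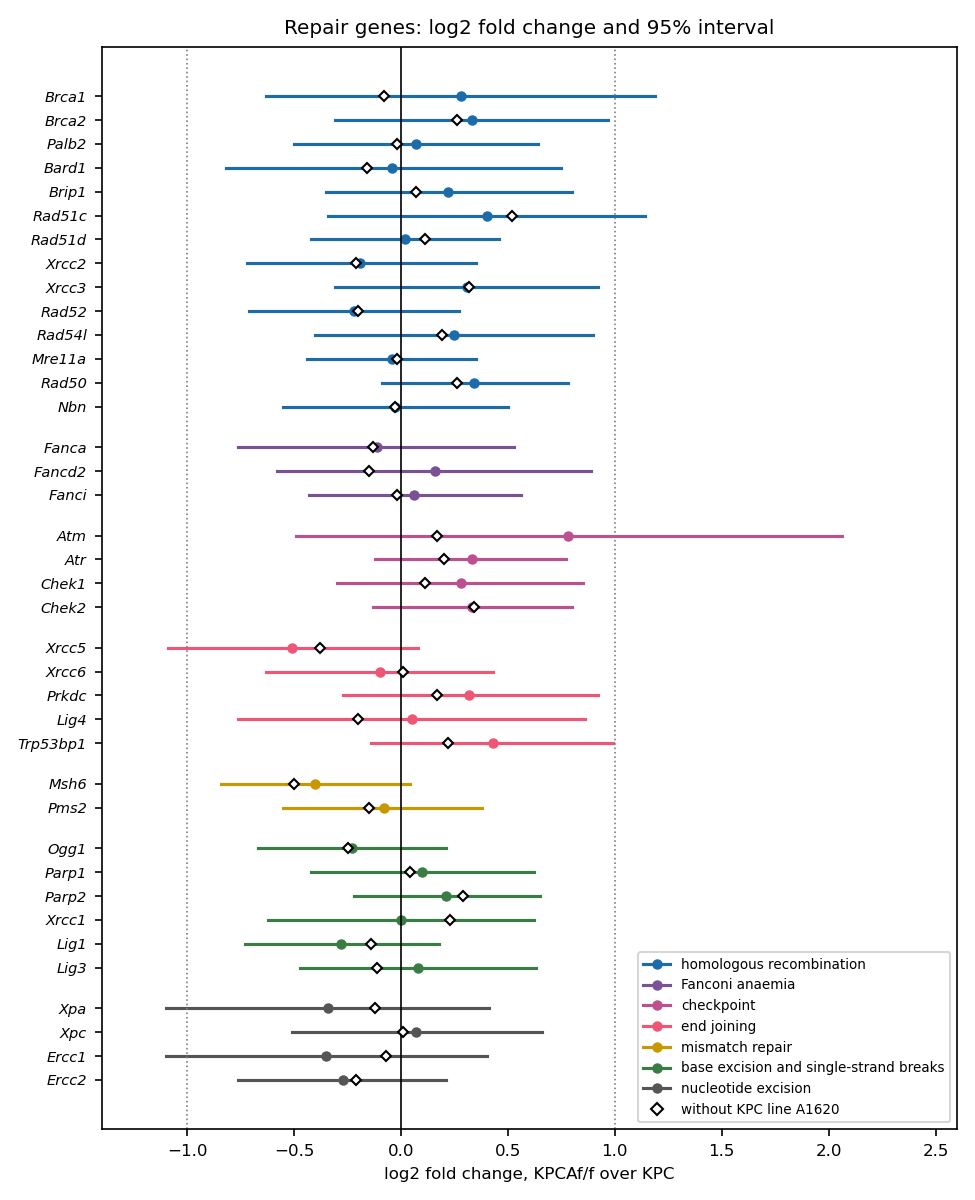
Log2 fold change of each of the 38 tested repair genes, KPCAf/f over KPC (n = 5 lines each), with the limma 95% interval as a horizontal bar, coloured by pathway; open diamonds give the fold change without KPC line A1620, and dotted lines mark a 2-fold difference. All 38 intervals include 0, and that of Atm is the widest, reaching 2.06.

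Homologous recombination held 14 members, of which 0 were called, with 9 fold changes above 0 and 5 below and a median of 0.15 on the log2 scale. Without A1620 there were 7 above 0 and 7 below, with a median of 0.03. Brca1, which directs broken ends into recombination (chromosome 11, 101488764 to 101551955, minus strand, GRCm38), had 1055, 376, 1588, 1819 and 940 normalized counts in KPC lines A1081, A1620, A1625, A2031 and A2032. The KPCAf/f lines A1693, A1809, A1925, A2441 and A3992 had 2104, 825, 1036, 1104 and 1424. The ranges overlapped broadly, with A1620 lowest and A1693 highest of the 10 lines. The means were 1156 ± 568 (SD, n = 5) in KPC and 1299 ± 499 (n = 5) in KPCAf/f, a log2 fold change of 0.28 with a 95% interval of -0.63 to 1.19 (limma adjusted p = 0.771). Without A1620 the log2 fold change of Brca1 was -0.08, so its sign rests on that line.

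Brca2, which loads the recombinase onto single-stranded DNA, had 304, 370, 597, 674 and 433 normalized counts in the KPC lines and 826, 598, 545, 626 and 366 in the KPCAf/f lines, in the same order of lines as above. Its means were 475 ± 155 (SD, n = 5) and 592 ± 165 (n = 5), with a log2 fold change of 0.33 (interval -0.31 to 0.97, limma adjusted p = 0.609). Again A1693 was highest, and the lowest line was a KPC line, A1081. Rad51c, a recombinase paralog, had 131, 185, 197, 91.6 and 90.7 in KPC and 232, 151, 164, 228 and 121 in KPCAf/f (log2 fold change 0.40, interval 0.788-fold to 2.20-fold, limma adjusted p = 0.597). Only A1693 and A2441 exceeded every KPC line for Rad51c.

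Rad50, Mre11a and Nbn encode the 3 subunits of the complex that first binds and trims a broken end. Rad50 had the smallest p of the recombination members, with 1108, 891, 1446, 1024 and 1191 normalized counts in KPC and 1638, 1021, 1641, 1338 and 1549 in KPCAf/f. In Rad50, 3 of the 5 KPCAf/f lines (A1693, A1925 and A3992) exceeded all KPC lines, while A1809 and A2441 lay within them. The log2 fold change of 0.34 (SE 0.20, interval -0.09 to 0.78) did not pass (limma adjusted p = 0.447). Its partners were nearly level, with Mre11a at 1485 ± 154 in KPC and 1459 ± 269 in KPCAf/f and Nbn at 603 ± 82.0 and 608 ± 181 (SD, n = 5 each). The interval of Mre11a, -0.44 to 0.35, was among the narrower ones, and differences beyond those bounds lie outside it in either direction.

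The remaining recombination members are Palb2 and Bard1, partners of BRCA2 and BRCA1, the helicase Brip1, the recombinase paralogs Rad51d, Xrcc2 and Xrcc3, the annealing factor Rad52 and the motor protein Rad54l. Their log2 fold changes ran from -0.22 (Rad52) to 0.31 (Xrcc3), and their intervals stayed between -0.82 (Bard1) and 0.92 (Xrcc3). Bard1 did not follow Brca1 across lines, at 646 in A1809 and 369 in A1693. Rad52 varied least of all members, with 173 to 241 normalized counts over the 10 lines and an SD within genotype of 0.16 on the log2 scale.

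The 3 Fanconi anaemia members act on DNA crosslinks, with Fanca in the core ligase and Fancd2 and Fanci as the pair it modifies. Of these 0 were called, with 2 fold changes above 0, and without A1620 none was above 0 and the median went from 0.06 to -0.13. Fancd2 had 895, 306, 892, 993 and 794 normalized counts in KPC and 1094, 597, 636, 957 and 832 in KPCAf/f. A1620 had the lowest value, and the other 4 KPC lines lay within the KPCAf/f range. The log2 fold change of Fancd2 was 0.16 (interval -0.58 to 0.89, limma adjusted p = 0.844) and -0.15 without A1620. Fanci averaged 748 ± 125 and 795 ± 203, and Fanca 942 ± 286 and 883 ± 308 (KPC and KPCAf/f, SD, n = 5 each).

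Of the checkpoint members the 4 kinases were tested, with 0 called, all 4 fold changes above 0 and a median of 0.33. Without A1620 all 4 were still above 0, with a median of 0.18. Atm, the kinase that responds to double-strand breaks (chromosome 9, 53439149 to 53536740, minus strand, GRCm38), had 881, 110, 912, 1113 and 872 normalized counts in the KPC lines and 1528, 601, 1160, 998 and 1230 in the KPCAf/f lines. A1620 had far less than any other line, and the lowest KPCAf/f line, A1809, was below the other 4 KPC lines. The log2 fold change was 0.78 with an interval of -0.49 to 2.06 (limma adjusted p = 0.548), and 0.17 with an interval of -0.40 to 0.73 without A1620 (adjusted p = 0.800). Most of the Atm difference was thus carried by 1 line.

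Atr, the kinase of stalled replication forks, had 731, 452, 753, 716 and 617 normalized counts in KPC and 916, 841, 629, 836 and 839 in KPCAf/f. Here 4 KPCAf/f lines exceeded every KPC line and A1925 fell among them, giving a log2 fold change of 0.33 (SE 0.20, interval -0.12 to 0.77, limma adjusted p = 0.479) and 0.20 without A1620. Chek2, the kinase downstream of ATM, had 611, 574, 654, 548 and 427 in KPC and 630, 872, 512, 784 and 774 in KPCAf/f, with a log2 fold change of 0.33 (interval -0.13 to 0.80, adjusted p = 0.484) that was 0.34 without A1620. Chek1, the kinase downstream of ATR, averaged 483 ± 141 and 575 ± 112, with a log2 fold change of 0.28 that was 0.11 without A1620. Atrip, the obligate partner of ATR, did not pass the filter on low values, with 50 reads over all 10 lines, with 0 to 6.63 normalized counts in KPC and 0.843 to 8.18 in KPCAf/f. Where it was tested, the adjusted p was 0.716 (limma with no filter) and 0.797 (DESeq2). Trex1, which shares part of the exon bases of Atrip on the same strand, was listed at 0 in every line, and reads of these overlapping genes cannot be told apart here.

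**Figure D2:**
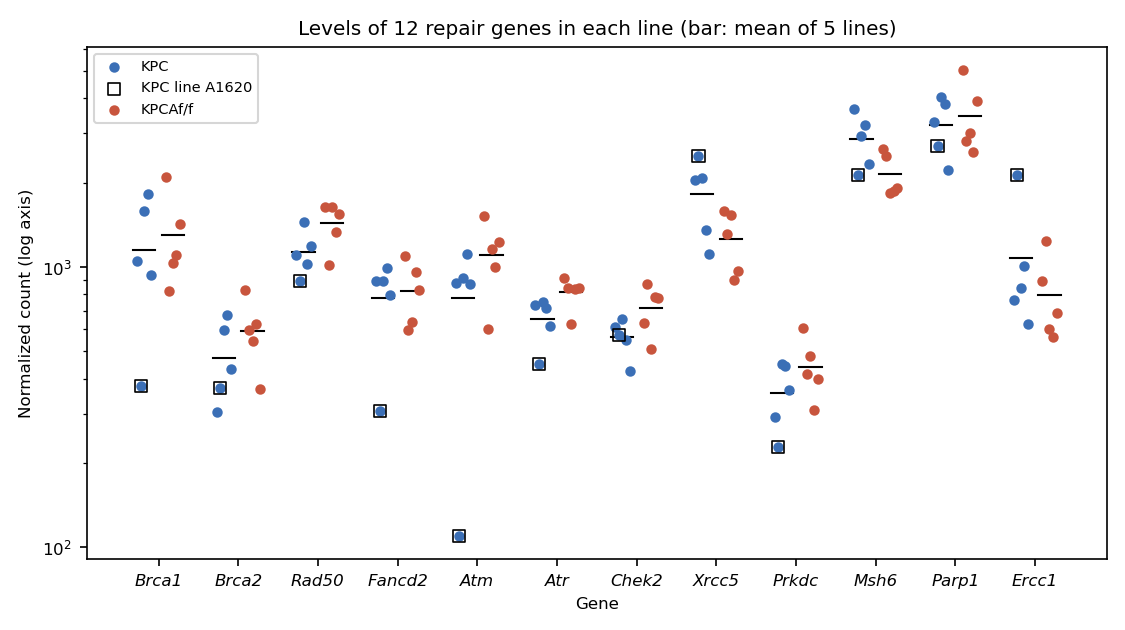
Normalized counts (log axis) of 12 repair genes in each of the 10 lines, KPC in blue and KPCAf/f in red, with a bar at the mean of 5 lines and KPC line A1620 boxed. The genotypes overlap for every gene shown, and A1620 lies lowest for Atm (110), Brca1 (376) and Fancd2 (306) and highest for Ercc1 (2134).

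Among the 5 end joining members 0 were called, with 3 fold changes above 0 and 2 below and a median of 0.05, or 0.01 without A1620. Xrcc5 and Xrcc6 encode the Ku subunits that cap a broken end. Xrcc5 had 2041, 2486, 2086, 1362 and 1117 normalized counts in KPC and 1582, 1312, 1534, 896 and 972 in KPCAf/f. In Xrcc5, 3 KPC lines lay above all KPCAf/f lines and 2 lay within their range, with a log2 fold change of -0.51 (SE 0.27, interval -1.09 to 0.08, limma adjusted p = 0.403). Its partner Xrcc6 averaged 1364 ± 276 in KPC and 1302 ± 383 in KPCAf/f, a log2 fold change of -0.10.

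Prkdc, the kinase that Ku recruits, had 293, 228, 452, 443 and 364 normalized counts in KPC and 604, 415, 481, 309 and 400 in KPCAf/f (log2 fold change 0.32, interval -0.27 to 0.92, limma adjusted p = 0.592; 0.17 without A1620). Trp53bp1, which protects ends from resection, had 949, 538, 1335, 1256 and 893 in KPC and 1632, 1287, 1083, 1371 and 1078 in KPCAf/f. Its log2 fold change of 0.43 (interval -0.14 to 0.99, adjusted p = 0.465) was 0.22 without A1620, the lowest line. Lig4, the ligase of this route, averaged 369 ± 150 and 373 ± 149, and its spread left an interval of -0.76 to 0.86.

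Mismatch repair was represented by Msh6, which recognises mispaired bases, and Pms2, which nicks the strand to be corrected. Msh6 (chromosome 17, 87975062 to 87990892, plus strand, GRCm38) had 3660, 2131, 2930, 3224 and 2337 normalized counts in KPC and 2644, 2494, 1836, 1866 and 1913 in KPCAf/f. The 3 highest lines were KPC and the 3 lowest were KPCAf/f, with A1620, A2032, A1693 and A1809 between them. The means were 2857 ± 629 and 2151 ± 386 (SD, n = 5 each), a log2 fold change of -0.40 (SE 0.20, interval -0.84 to 0.04, unadjusted p = 0.0709 and limma adjusted p = 0.386). Without A1620 it was -0.50 (interval -0.89 to -0.10, adjusted p = 0.228). Over the 22 other settings tried, the adjusted p of Msh6 ran from 0.0630 to 0.575, and 5 settings gave an unadjusted p under 0.05. Pms2 averaged 528 ± 89.5 and 500 ± 91.8.

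Base excision and single-strand break repair had 6 members, with 0 called and 4 fold changes above 0, or 3 without A1620, where the median went from 0.04 to -0.03. Parp1, the sensor of strand breaks that PARP inhibitors target, had 3292, 2711, 4044, 3834 and 2227 normalized counts in KPC and 5038, 2810, 3019, 2583 and 3919 in KPCAf/f. Apart from A1693 the KPCAf/f lines lay within the KPC range, and the log2 fold change was 0.10 (interval -0.42 to 0.62, limma adjusted p = 0.864). Parp2, its paralog, had 582, 797, 596, 695 and 575 in KPC and 948, 566, 690, 735 and 849 in KPCAf/f (log2 fold change 0.21, interval -0.22 to 0.65, adjusted p = 0.631). The genotypes thus overlapped for both polymerases.

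Lig1, the ligase of replication and long-patch repair, had 2953, 4240, 2806, 2784 and 2258 normalized counts in KPC and 3138, 2149, 1995, 2922 and 2165 in KPCAf/f, with A1620 highest (log2 fold change -0.28, interval -0.73 to 0.18, limma adjusted p = 0.560; -0.14 without A1620). Ogg1, which excises oxidised guanine, had 449, 468, 419, 514 and 627 in KPC and 499, 431, 384, 440 and 347 in KPCAf/f (log2 fold change -0.23, interval -0.67 to 0.21, adjusted p = 0.600). The scaffold Xrcc1 averaged 1108 ± 472 and 1086 ± 357, with a single high line in each genotype, A1620 at 1947 and A1693 at 1720, against 801 to 979 in the other 8. Lig3, the ligase that XRCC1 carries, averaged 1410 ± 399 and 1466 ± 346. In the annotation 25.1% of its exon bases lie under other genes, the largest part under a gene on the opposite strand.

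Nucleotide excision repair had 4 members, with 0 called and 3 fold changes below 0. Their median was -0.31, and -0.09 without A1620. Ercc2, a helicase of the TFIIH complex, had 753, 820, 640, 772 and 543 normalized counts in KPC and 683, 707, 572, 606 and 386 in KPCAf/f (log2 fold change -0.27, interval -0.76 to 0.21, limma adjusted p = 0.585). Other annotated genes cover 42.7% of its exon bases, the largest part by a gene on the opposite strand, so this count is uncertain. The nuclease subunit Ercc1 and the damage-verifying protein Xpa had intervals of -1.10 to 0.40 and -1.10 to 0.41, and both were highest in A1620, at 2134 and 403. Without that line their log2 fold changes went from -0.35 to -0.07 and from -0.34 to -0.12. Xpc, which finds the lesion, averaged 371 ± 95.7 and 392 ± 103.

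The spread between lines sets how large a shift could be present. For 32 of 38 members the whole 95% interval lay within a 2-fold difference in either direction, as it did for 40.2% of all genes tested. Lying within it depends on the fold change of a gene as well as on its spread. The 6 members with wider bounds were Brca1, Rad51c and Atm on the side of a higher level and Xrcc5, Xpa and Ercc1 on the side of a lower one. The widest bounds were a level 4.16-fold that of KPC for Atm and 0.465-fold for Ercc1. For 5 members the interval lay within 1.5-fold. Without A1620 the interval of 37 of 38 members lay within 2-fold, with Rad51c as the exception at an upper bound of 1.25, where 52.3% of all genes did so. A p above the threshold does not show that the genotypes are alike, and shifts within these bounds are not addressed by 5 lines per genotype.

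Given each gene's own standard error, the smallest log2 difference that limma could have called was 1.17 at the median of the members and 1.57 at the median of all genes tested. Among members it ranged from 0.81 for Mre11a, or 1.75-fold, to 2.61 for Atm, or 6.09-fold. Without A1620 the smallest callable difference of Atm was 1.24, or 2.37-fold, the median of the members 1.11, and the range 0.76 (Atr) to 1.81 (Bard1). Brca1 would have needed 3.64-fold, Brca2 2.47-fold, Parp1 2.10-fold and Msh6 1.87-fold. The SD between lines of a genotype was 0.38 on the log2 scale at the median of the members, 0.49 over the 8798 tested genes within their range of mean levels, and 0.55 over all tested genes. Without A1620 these values were 0.31, 0.36 and 0.42.

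Line A1620 set the extremes of many members, in a direction that went with transcript length. Of the 38 members it was the lowest line for 11 and the highest for 8. All 8 members with a transcript of at least 6000 bases were below their mean over the 10 lines in A1620, by a median of -0.74 on the log2 scale and by -2.86 for Atm, -1.57 for Brca1 and -1.03 for Trp53bp1. Of the 9 members under 3000 bases, 7 were above that mean, among them Ercc1 by 1.31, Xpa by 1.08 and Xrcc1 by 0.89. Over the members the shift in A1620 was -0.73 per doubling of transcript length, against -0.03 to 0.17 in the other 9 lines. With each line's values corrected for transcript length, 0 members were called, where 235 of the 12780 genes tested were. The log2 fold change of Atm was then 0.47 (interval -0.34 to 1.27) and that of Brca1 0.07. That of Atr went from 0.33 to 0.06, of Trp53bp1 from 0.43 to 0.12 and of Prkdc from 0.32 to -0.06. With A1620 left out instead, these 3 were 0.20, 0.22 and 0.17. The correction also acts on the length dependence of the KPCAf/f lines, which cannot be told apart from genotype. It may therefore remove a difference between genotypes as well. With the correction the log2 fold changes of Chek2 (0.33 to 0.44) and Msh6 (-0.40 to -0.47) moved away from 0.

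**Figure D3:**
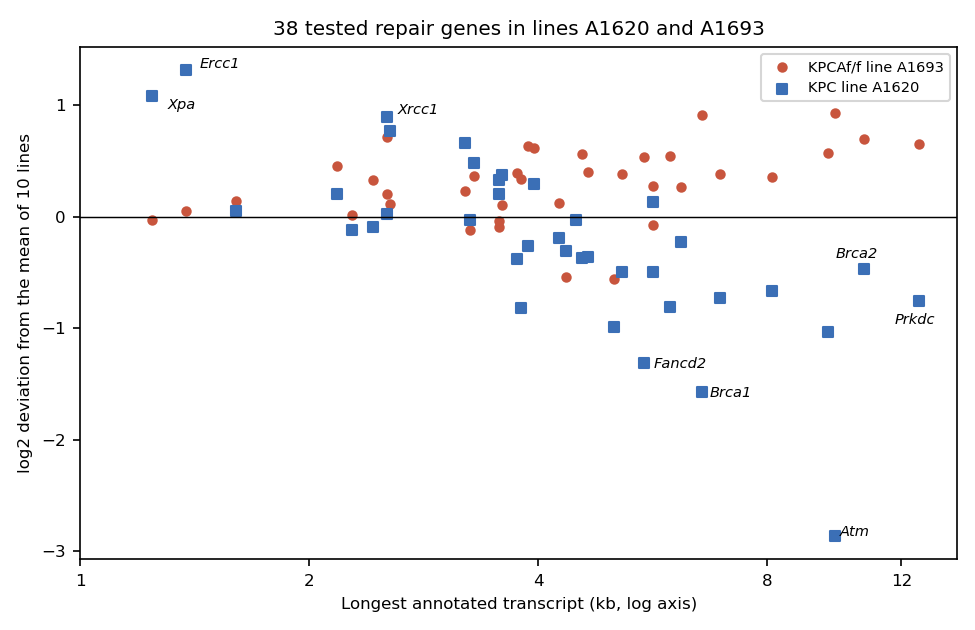
Deviation of each of 38 repair genes from its mean over 10 lines (log2) against the longest annotated transcript (kb, log axis), in KPC line A1620 (squares) and KPCAf/f line A1693 (circles). In A1620 all 8 members of 6000 bases or more lie below 0 and Atm lies at -2.86.

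KPCAf/f line A1693 was the highest of the 10 lines for 15 of 38 members and the lowest for 1. Its median deviation was 0.35 for homologous recombination, 0.36 for end joining and 0.49 for base excision members. The other KPCAf/f lines had medians over all members from -0.14 (A1925) to 0.06 (A2441), and KPC line A2032 had -0.21. The median deviation of the 4 checkpoint members was 0.26 to 0.34 in 4 of 5 KPCAf/f lines and -0.24 in A1925. In KPC it was -0.75 in A1620 and -0.11 to 0.08 in the other lines. The mean from which these deviate includes A1620. With A1620 and A1693 both left out, 0 members were called, where 185 of the 13089 genes tested were. The median log2 fold change of the members was then -0.09.

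**Figure D4:**
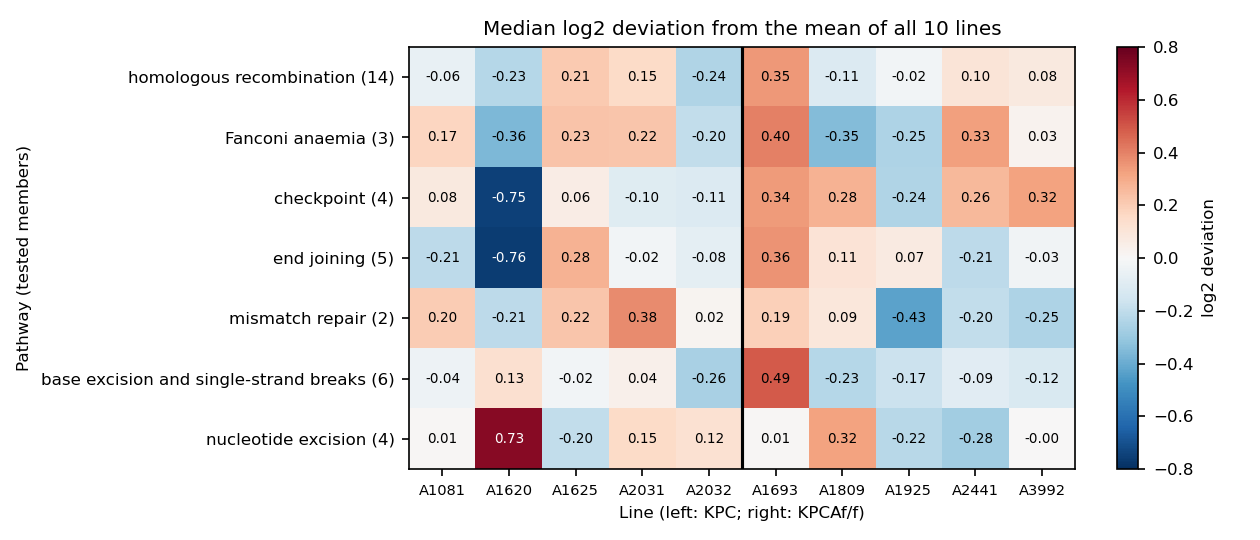
Median deviation (log2) of each pathway's tested members from their mean over all 10 lines, with the number of members in brackets and KPC lines to the left of the black bar. A1620 shows -0.75 for checkpoint, -0.76 for end joining and 0.73 for nucleotide excision genes, while A1693 is at 0.34 to 0.49 in 5 of the 7 pathways.

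Set per length of transcript, repair genes spanned a wide range of levels in both genotypes. Normalized counts per kb of the longest transcript were highest for Parp1, at 832 in KPC and 897 in KPCAf/f, and Lig1, at 939 and 772, followed by Ercc1, Xrcc5 and Msh6. Among the tested members they were lowest for Prkdc, at 28.1 and 34.9, Rad51c, at 35.2 and 45.4, and Brca2, at 44.3 and 55.2. Atrip, which did not pass the filter on low values, was lower still, at 0.905 and 1.31. The KPC means include A1620, in which long transcripts such as those of Prkdc and Brca2 read low. Neighbours in this order, such as Parp1 and Lig1, lay within the spread between lines.

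Other genes of the same pathways, taken from lists of 126 textbook repair genes that are not members, gave a like picture. Of the 125 tested, limma, edgeR and limma-voom called 0, where they called 1.75%, 1.34% and 0.85% of all their genes. DESeq2 called 1, where it called 6.83% of all its genes. An unadjusted limma p under 0.05 was reached by 4, against 14.6% of all genes tested. The median log2 fold change of the 125 was 0.04. Parp3, a polymerase that acts in double-strand break repair, had 240, 350, 547, 416 and 482 normalized counts in KPC and 1456, 571, 1021, 627 and 871 in KPCAf/f. Its genotypes did not overlap, with a log2 fold change of 1.13 (SE 0.31, interval 0.44 to 1.82, limma adjusted p = 0.117; DESeq2 adjusted p = 0.0189). The centrin Cetn2, a partner of XPC, also did not overlap, at 788 ± 139 and 547 ± 66.1 (log2 fold change -0.52, limma adjusted p = 0.234). These were the 2 of 125 without overlap, where 4.53% of all genes tested had none.

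The glycosylase Neil2 averaged 19.3 ± 10.5 in the KPC lines and 50.5 ± 15.3 in the KPCAf/f lines (log2 fold change 1.53, limma adjusted p = 0.217), and the polymerase subunit Pold2 at 2600 ± 903 and 1520 ± 736 (-0.90, adjusted p = 0.324). Among checkpoint genes the mediator Mdc1 was at 1416 ± 513 and 2205 ± 673 (0.69, adjusted p = 0.354) and the clamp loader Rad17 at 487 ± 136 and 665 ± 86.6 (0.48, adjusted p = 0.361). None of these passed. In the Fanconi anaemia list Wdr48 and Slx4ip had the smallest p, with log2 fold changes of 0.45 and 0.65 (adjusted p = 0.378 and 0.386). The same place was held by Gen1 and Rad51b in recombination (0.57 and 0.51), Dclre1c in end joining (0.43), and Polk and Rev3l in translesion synthesis (0.58 and 0.67), and next to Pold2 and Cetn2 by Pms1 (0.43) and Uvssa (0.68), with adjusted p of at least 0.437.

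Several repair genes are transcribed in S phase, under E2F factors, so a list of 25 replication and mitosis genes is given beside them. Of these limma called 0, against 1.75% of all genes tested, and 3 had an unadjusted limma p under 0.05, against 14.6%. Fold changes were below 0 for 21, and the median was -0.25 on the log2 scale. By line the median deviation of the list was highest in A1620 (0.45), A1625 (0.30) and A2031 (0.29) and lowest in A1925 (-0.44) and A2032 (-0.36). Values of A1620 depended on transcript length, and the list was mixed there. Gins2 (2159 normalized counts) and Birc5 (5955) were at their highest in A1620, and Mcm4 (2360) and Bub1 (1084) at their lowest. The part of transcript length in the values of this list was not tested. Like the list, Msh6 was lowest in A1925, and A1625 and A2031 were among its 3 highest lines. In A1620, the highest line of the list, Msh6 was below its mean over lines (-0.19), and its highest line, A1081, was at 0.08 on the list. The part of this list in the Msh6 values was not tested.

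What the members share in sequence was looked at in promoters of 300 bases, from 250 before to 50 after the annotated start (RefSeq, GRCm38.p6), of which 32 of 39 members had one. An E2F word (TTTCCCGC, TTTGGCGC, TTTGCCGC or TTTCGCGC, either strand, none of which contains either of the 2 words below) was present in 6 of these 32, or 18.8%, and in 2.3% of 27025 promoters. A CCAAT box (CCAAT, either strand) was present in 18 of 32, and in 37.9% of all promoters, and the cell-cycle word TTTGAA in 1 of 32 and 18.1%. The 6 members with an E2F word were Bard1, Brca2, Chek2, Msh6, Rad51c and Xrcc6, with log2 fold changes from -0.40 to 0.40. In Msh6 and Rad51c the word lay after the start site. A match is a description of these letters and not a bound site. The 60 bases around the word are shown for the other 4, read 5′ to 3′ on the strand of the gene with the E2F word in capitals, because this word is what these members share in sequence. They lie at chr1:71103148-71103207 (minus strand, Bard1), chr5:150522427-150522486 (plus, Brca2), chr5:110839805-110839864 (plus, Chek2) and chr15:82016297-82016356 (plus, Xrcc6).
Bard1: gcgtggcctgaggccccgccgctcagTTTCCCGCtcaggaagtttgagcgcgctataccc
Brca2: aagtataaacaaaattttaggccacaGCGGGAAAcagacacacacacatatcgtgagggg
Chek2: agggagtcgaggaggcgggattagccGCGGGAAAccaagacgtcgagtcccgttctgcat
Xrcc6: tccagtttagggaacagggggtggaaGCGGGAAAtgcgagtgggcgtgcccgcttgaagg
The word is TTTCCCGC in Bard1 and its reverse complement, GCGGGAAA, in Brca2, Chek2 and Xrcc6. These 4 genes did not share an order of lines, since Bard1 and Chek2 were highest in A1809, Brca2 in A1693 and Xrcc6 in A1620.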

How the data were processed

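Each of the 10 lines gave 1 library. Per the labels' protocols, stranded mRNA libraries were made from RNeasy-isolated RNA. Named per the submitters' processing notes are STAR 2.5.2b, Subread 1.5.0p3 (featureCounts), bcl2fastq 1.8.4, Trimmomatic 0.36 and DESeq2 1.14.1, with no order or role stated. Those notes list both mm9 and GRCm38.p5 as builds. Which annotation and strand option the counting used is not given in the sources used here. Genes that overlap others on either strand are therefore uncertain. The deposited signal is a count per gene that the authors had scaled by size factors of DESeq2. Whole reads were recovered for 100.0% of values (tolerance 0.001 read). All pairs of libraries differed beyond sampling noise, with a chi-square of at least 60.6 times its degrees of freedom.

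Genotypes were compared by a two-sided limma fit (version 3.58.1, R 4.3.3) with a variance trend on log2(normalized count + 1), over the 13089 genes with at least 10 normalized counts in at least 5 lines, with Benjamini-Hochberg adjustment over all of them. Folds on this scale understate changes of low genes. Intervals are limma's 95% intervals. The smallest callable difference is the t quantile at the largest p called (0.000874) times the gene's SE. As alternatives, edgeR 4.0.16, DESeq2 1.42.0 and limma-voom were run on recovered reads, and other pseudocounts (0.5 and 5), filters, scalings, array weights, a transcript length correction and lines left out were tried. Scripts were tested on simulated data. Transcript lengths and coordinates come from GENCODE M21 (GRCm38). Members and lists were chosen with earlier results of these data known. Values by line are given for up to 3 members per pathway by smallest p, for Brca1, Brca2, Atm, Atr, Parp1 and Prkdc, and for others where a single line matters; of the other repair genes up to 2 per list are named, and 1 that the rule selects is not reported here. Figures used matplotlib 3.10.9.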

Additional observations from a re-analysis of the deposited data

Results flagged for a closer look

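In 6 of 78 sets of 5 lines (39 genes in 2 genotypes) the highest or lowest line lay far from the rest, with a gap to its neighbour of more than 0.710 of the whole range; chance gives about 1 in 20. KPC line A1620 gave 3 of the 6. It had 110 normalized counts of Atm against 872 to 1113 in the other KPC lines, 1947 of Xrcc1 against 801 to 950, and 2134 of Ercc1 against 627 to 1009. KPCAf/f line A1693 had 1720 of Xrcc1 against 882 to 979. KPC line A1625 had 173 of Rad52 against 228 to 241, and KPCAf/f line A1925 had 629 of Atr against 836 to 916.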

How the results depend on the processing

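Under all 22 alternatives 0 members were called by the tool used. Calls over all genes ran from 112 of 13171 (limma-voom) to 1156 of 16923 (DESeq2). The median log2 fold change of the members ran from -0.10 to 0.12. The number of members with an interval within 2-fold ran from 25 (without A1625) to 37 over the alternatives that give intervals. Of the other repair genes 1 was called by DESeq2 (Parp3), where it called 6.83% of all its genes, and 0 under the other 21 alternatives. The sign of the fold change turned in 71 of 836 values, in 18 members whose main fold change was at most 0.33 in size, and the cause was not tested. With quantile scaling it turned for Palb2 (-0.09), Rad51d (-0.04), Mre11a (0.01), Lig4 (-0.06) and Xpc (-0.01), with edgeR for Nbn (0.02) and Xrcc1 (-0.03), and with DESeq2 for Nbn (0.01) and Xrcc1 (-0.03). With array weights it turned for Brca1 (-0.24), Palb2 (-0.12), Nbn (0.01), Fancd2 (-0.21), Fanci (-0.11), Lig4 (-0.10), Parp1 (-0.11) and Lig3 (-0.08). With the transcript length correction it turned for Brca2 (-0.01), Nbn (0.05), Fanci (-0.04), Prkdc (-0.06), Lig4 (-0.08), Lig3 (-0.09) and Xpc (-0.01). With A1620 and A1693 left out together it turned for Brca1 (-0.27), Palb2 (-0.11), Fancd2 (-0.26), Fanci (-0.11), Lig4 (-0.05), Parp1 (-0.10) and Lig3 (-0.23). Leaving out each line in turn gave ranges that cross 0 for Bard1 (-0.24 to 0.15), Rad51d (-0.04 to 0.11), Xrcc1 (-0.18 to 0.23), Brca1 (-0.08 to 0.49), Palb2 (-0.03 to 0.17), Fancd2 (-0.15 to 0.27), Fanci (-0.03 to 0.18), Xrcc6 (-0.20 to 0.05), Lig4 (-0.20 to 0.21), Lig3 (-0.11 to 0.19), Fanca (-0.28 to 0.07), Xpc (-0.04 to 0.22), Nbn (-0.17 to 0.12), Parp1 (-0.05 to 0.19), Mre11a (-0.12 to 0.08) and Pms2 (-0.16 to 0.02). Over all genes the calls were 229 as reported, 112 with limma-voom, 131 at a mean of at least 100 normalized counts, 152 without A1925, 586 with array weights and 1156 with DESeq2. Atrip had 50 reads over all lines, and the reason for this low count was not tested.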
